A study of Mus musculus with 4 samples.

Results

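The genes described here belong to the Bcl2 family, the caspases and the wider machinery of programmed cell death, measured in 4 samples of mouse hippocampus. They were taken by probe set, a group of short oligonucleotides read together as 1 signal. Every probe set that the array's annotation assigned to a single gene symbol was taken if that symbol named a gene of the following kinds. These were Bcl2 family genes, caspases, a death receptor or ligand, adaptors or kinases of that route, and inhibitors of apoptosis (Birc). Apaf1 and the Traf, Pdcd, Cide, p53-related (Trp53) and Gadd45 genes were taken as well. This gave 77 of the 12488 probe sets on the array, for 54 genes, in 14 groups by role. The rule used names only and no measured values, though it was chosen with earlier results of these data known. Of the 77, 1 is a control probe set for Fas, and 76 were treated like the other 12422 probe sets that are not controls.

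Total RNA of each sample was read on 1 Affymetrix Murine Genome array. The labels place the 4 samples in a single group, hippocampus, and the title of the series calls them replicates. Strain, sex, age and treatment of the animals are not given in the labels, nor is it said whether the samples came from separate animals, so that the spread between them may be technical and no groups could be compared. They are numbered 1 to 4, in no meaningful order. Signals are given in quantile normalized array units, and a level is not compared between probe sets, since each has its own affinity. The exception is the lists of other genes and of cell type genes, where the probe set with the highest mean signal was taken for each gene.

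In the mitochondrial route to apoptosis, BH3-only proteins sense damage or loss of trophic support and engage the protective members Bcl2, Bcl2l1 and Mcl1, which otherwise hold Bax and Bak1 in check. Once Bax or Bak1 open the outer mitochondrial membrane, cytochrome c binds Apaf1, and the apoptosome activates Casp9, which starts the caspase cascade. Death receptors such as Fas reach the caspases through Fadd and Casp8, while Traf proteins and Birc2 turn the related TNF receptors towards NF-kappaB signalling and survival. In the adult brain, Bcl2l1 is known as the main protective member of neurons, and in the hippocampus many young granule neurons of the dentate gyrus die by apoptosis before they mature.

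Signals under 27.7 units, the 25th percentile of all normalized values, were set to this floor before log2 was taken, and a probe set was analysed when its mean log2 signal was above the median of all. By this filter 39 of the 76 probe sets were analysed, for 33 genes, and the 39 were above the floor in all 4 samples. Of the other 37 probe sets, 14 were above the floor in 4 samples, 3 in 3, 6 in 2, 5 in 1 and 9 in none, and 21 genes had no analysed probe set. No probe set with a single symbol was assigned to Bax, Trp53 or a Ripk gene, and these genes were not analysed here.

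The tissue and the arrays were checked once. Genes of neurons (8 of 8 measured), astrocytes (6 of 6) and oligodendrocytes (5 of 6) passed the signal filter, as did 8 of 10 microglial genes, whereas of 9 measured genes of T cells, B cells and neutrophils 1 did, and Cd8a, Ly6g, Ptprc and S100a9 lay at or under the floor in all samples. The lists held no gene particular to the hippocampus among brain regions. Sample 4 had the highest ratio of 3' to 5' signal for beta-actin (2.03, against 1.51 to 1.84 in samples 1 to 3) and Gapdh (1.15, against 0.864 to 0.981). The same held for 18S rRNA (6.42, against 3.02 to 5.01) and, by little, pyruvate carboxylase (3.16, against 1.81 to 3.03). For the transferrin receptor, its 5' signal was under the floor, and its ratio was at least 2.71, against 3.36 in sample 3. The summed signal of the 8 neuronal genes was lowest in sample 4, at 14691 units, against 16969 to 20246 units in samples 1 to 3. Sample 3 was lowest for the summed signals of red blood cell genes (14231, 11126, 4652 and 8739 units in samples 1 to 4), choroid plexus genes (2955, 1584, 1104 and 2196 units) and oligodendrocyte genes (7129, 9703, 7029 and 10107 units). It was also lowest for vessel genes (989, 860, 746 and 818 units) and for genes of T cells, B cells and neutrophils (285, 361, 221 and 298 units). In tissue samples, fewer cells of a type and less RNA per cell cannot be told apart.

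The death pathway genes had a median range over the samples close to that of all analysed probe sets. The median range of the 39 analysed probe sets, the highest over the lowest sample, was 1.41-fold, and that of all 6211 analysed probe sets was 1.44-fold. A range under 1.5-fold was found for 24 of 39 (61.5%), against 56.2% of all. In 3 of 39 (7.69%) the highest sample was at least 2-fold above the lowest, against 14.4% of all, and 2 of these 3 probe sets read Bcl2l11 and 1 reads Gadd45g. The count was 1 when sample 3 or sample 4 was left out, and the share over all analysed probe sets was then 10.3% and 6.65%. The order of the medians depended on the filter and the samples. With the signal filter at the 75th percentile, the 13 members left had a median range of 0.55 log2 units, against 0.43 for all probe sets tested, and without sample 4 the values were 0.38 and 0.36.

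Each variance was tested against the trend of variance on signal (limma, one-sided F test, Benjamini-Hochberg adjustment over 6211 probe sets). After adjustment 0 of 39 passed, against 0% of all probe sets, and the lowest adjusted p was 0.805. An unadjusted p under 0.05 was found for 1 of 39, a Bcl2l11 probe set, against 5.86% of all. The other fits of the trend, without a robust fit or without the trend, also gave 0 probe sets after adjustment and 1 before it. Without sample 1 or sample 4 the probe set with an unadjusted p under 0.05 was that of Bcl2l2, and without sample 3 there were 0. A p above the threshold does not show that the samples were alike.

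**Figure D1:**
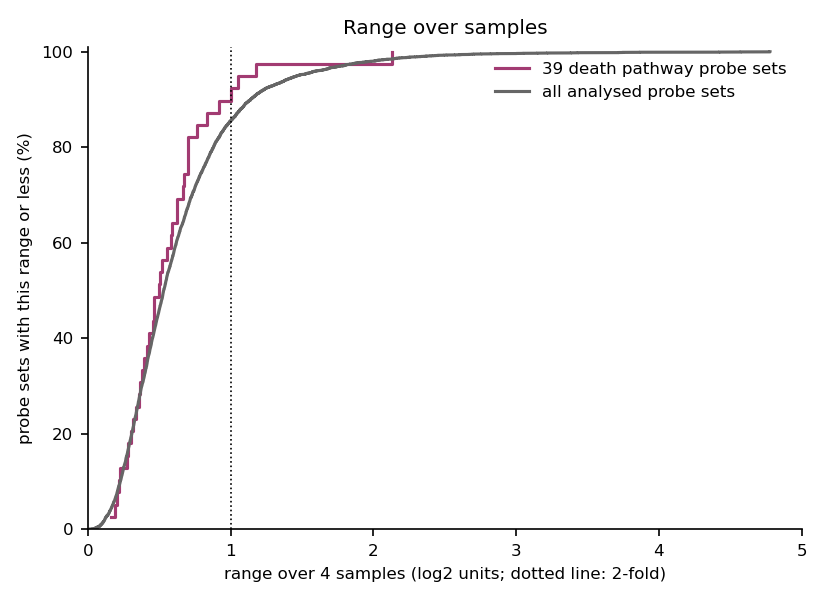
Cumulative share of probe sets (vertical axis, percent) whose range over the 4 samples is at most the value on the horizontal axis (log2 units), for the 39 death pathway probe sets and for all 6211 analysed probe sets, with a dotted line at 2-fold. The 39 follow the curve of all probe sets up to their median (1.41-fold against 1.44-fold), and 3 of them lie beyond 2-fold.

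The members lay close to balance in each sample. The median log2 difference of a sample from the mean of the other 3 was -0.05, 0.05, -0.03 and -0.03 in samples 1 to 4, against 0.01, 0.01, 0.01 and 0.02 over all analysed probe sets. Sample 2 was the highest sample for 13 of the 39 probe sets (33.3%, against 21.6% of all). Sample 4 was the lowest for 14 (35.9%, against 30.6% of all), and sample 1 was the lowest for 5 (12.8%, against 23.2%). These shares describe probe sets that were measured on the same 4 arrays and were not tested.

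Among the protective Bcl2 proteins, 5 of 9 probe sets were analysed, for Bcl2, Bcl2l1, Bcl2l2 and Mcl1. Bcl2l1, which encodes the survival protein Bcl-xL, gave 916, 808, 845 and 1372 units in samples 1 to 4. Sample 4 was above the other 3, which spanned 0.18 log2 units when normalized without it, and the range was 1.70-fold over all 4 (985 ± 262 units, SD, n = 4; adjusted p = 0.951 by limma's F test). The dim Bcl2l1 probe set, 99026_at, was above the floor in 1 sample. Bcl2l2, the close relative Bcl-w, ran another way, with 560.2, 437, 793 and 396 units. It was highest in sample 3 and lowest in sample 4, and its range fell just short of the 2-fold mark (547 ± 178 units, SD, n = 4; limma adjusted p = 0.894). For Bcl2l2, sample 3 was further from the mean of the other 3 (0.79 log2 units) than sample 4 (-0.55). Sample 4 was the highest for Bcl2l1 and the lowest for Bcl2l2. It also had the highest 3' to 5' ratios for beta-actin and Gapdh and the lowest neuronal sum, whose part in these values was not tested.

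Bcl2 itself was read by 3 probe sets. The analysed probe set 98870_at gave 294, 325, 369 and 258 units and 98869_g_at gave 208, 130.4, 184 and 140.4 units. Sample 4 was low on both, but their highest and lowest samples differed, and the remaining one, 98868_at, was at or under the floor in all samples. Mcl1, a short-lived protective protein, was among the steadiest members, with 292, 331, 318 and 288 units (307 ± 20.9 units, SD, n = 4), a range of 1.15-fold. Bcl2l10 was too dim for analysis, and its probe sets 162021_r_at and 96044_at spanned 3.04-fold and 1.85-fold with different highest samples.

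The pore-forming proteins were represented by Bak1 and Bok, and both stayed under 1.5-fold. Bak1, which permeabilizes the mitochondrial outer membrane, gave 214, 277, 213 and 217 units, a range of 1.30-fold. Sample 2 was high and the other 3 were nearly equal. Bok, a relative of Bax and Bak1, gave 621, 911, 884 and 828 units, with sample 1 low and a range of 1.47-fold (811 ± 131 units, SD, n = 4). The direction of neither gene can be set against Bax, which was not analysed here.

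The BH3-only genes held the widest member. Bcl2l11, which encodes Bim, an initiator of neuronal apoptosis after loss of trophic factors, was analysed with 2 probe sets that ran in opposite directions. Probe set 99418_at gave 181, 89.9, 170.0 and 41.3 units in samples 1 to 4. It was high in samples 1 and 3 and lowest in sample 4, a range of 4.38-fold (121 ± 66.6 units, SD, n = 4; limma adjusted p = 0.805).

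Probe set 100988_at of Bcl2l11 gave 129, 155, 114 and 237 units, a range of 2.08-fold (159 ± 54.7 units, SD, n = 4; limma adjusted p = 0.994). It was highest in sample 4, where the other was lowest, and lowest in sample 3. The remaining one, 99419_g_at, lay under the floor in all samples, so that the array gave no single direction for this gene. Without sample 4 the ranges were 0.98 log2 units for 99418_at and 0.44 for 100988_at, and without sample 1 or sample 3 probe set 99418_at fell below the signal filter. Bcl2l11 is known to be made in several splice forms, and which of them each probe set reads was not tested.

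Bad, a BH3-only protein that growth factor signalling holds inactive by phosphorylation, was steady, though its probe sets also disagreed in order. Probe set 161500_i_at gave 239.9, 289, 239 and 283 units, a range of 1.21-fold, and 99670_at gave 155, 112, 117 and 132 units, a range of 1.38-fold. Sample 2 was the highest on one and the lowest on the other. Bid, which links death receptors to mitochondria, was too dim for analysis but above the floor throughout, with 70.3, 95.1, 78.0 and 125 units. Bik was above the floor in 2 samples, with a range of at least 2.24-fold.

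**Figure D2:**
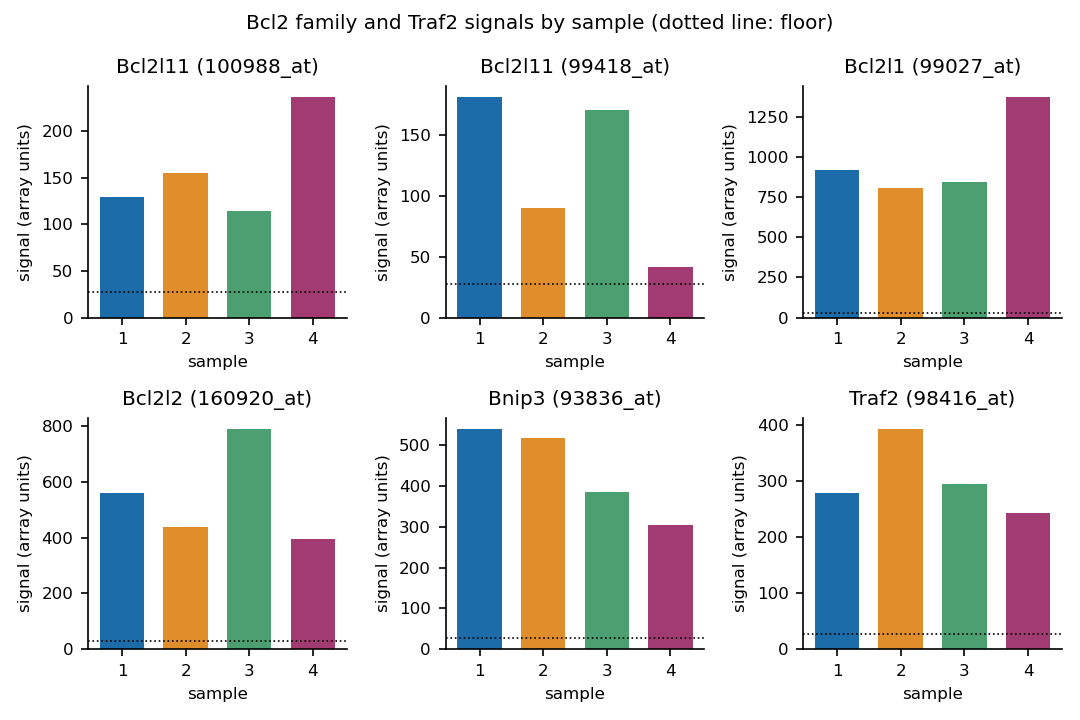
Normalized signal (array units, linear axis from 0) in samples 1 to 4 for both analysed Bcl2l11 probe sets and for Bcl2l1, Bcl2l2, Bnip3 and Traf2, with 1 bar per sample, no error bars and a dotted line at the floor of 27.7 units. Sample 4 is highest for Bcl2l11 100988_at (237 units) and Bcl2l1 (1372 units) and lowest for Bcl2l11 99418_at (41.3 units), Bcl2l2 (396 units), Bnip3 (304 units) and Traf2 (242 units).

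Of the Bnip and other Bcl2-related genes, 3 of 4 analysed probe sets stayed under 1.5-fold. Bnip3, a mitochondrial protein that is induced by low oxygen and marks mitochondria for autophagy, gave 541, 517, 385 and 304 units. Samples 1 and 2 were high and sample 4 low, a range of 1.78-fold (437 ± 112 units, SD, n = 4; limma adjusted p = 0.975). Bcl2l13, a Bcl2-related protein of the mitochondrial outer membrane, gave 449.9, 427, 387 and 435 units, and Bnip1, a SNARE protein of the endoplasmic reticulum, gave 374, 371, 441 and 358 units. These spanned 1.16-fold and 1.23-fold, and Bnip2 spanned 1.41-fold on its analysed probe set. The dim Bnip2 probe set, 93064_at, spanned 2.88-fold and was lowest in sample 2, where the analysed one was highest. The other Bnip1 probe set, 161481_f_at, was under the floor in all samples.

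Caspases that start the cascade varied little where they were analysed. Casp9, the caspase of the apoptosome, had 3 analysed probe sets, and its lowest sample was sample 4 on each. They gave 201, 199, 191 and 179.7 units (100367_g_at), 198, 154, 163 and 144 units (100366_at), and 137, 176, 120.3 and 117 units (103711_at). The ranges were 1.12-fold, 1.38-fold and 1.51-fold, and the fourth probe set, 100368_at, was too dim for analysis and also lowest in sample 4, where it was under the floor.

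Apaf1, the scaffold of the apoptosome, gave 128, 128, 175 and 141 units, with sample 3 high and a range of 1.37-fold. Casp2, a caspase activated by the PIDDosome complex, gave 248, 301, 252 and 263 units, a range of 1.21-fold (266 ± 23.9 units, SD, n = 4). Its dim probe set, 161263_f_at, was also highest in sample 2 but spanned 2.52-fold. Casp8ap2, a nuclear protein of histone mRNA processing that was first found as a partner of Casp8, gave 104, 102, 126 and 135 units, a range of 1.33-fold. Its other probe set, 104291_at, was under the floor in all samples. None of these genes had an adjusted p below 0.99 by limma's F test.

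Death receptor genes and most other caspases were near or under the floor, where no order of samples can be read. Fas and its ligand Fasl were under it in all samples, at 1.75 to 2.58 and 4.20 to 15.2 units, and the control probe set for Fas gave 8.9 to 36.4 deposited units. Casp6 and Casp12, a caspase of the endoplasmic reticulum, were under it in all samples as well. The inflammatory caspases Casp1 and Casp4, and Casp8, the caspase of death receptors, were each above it in 1 sample.

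Fadd and Casp14, though dim, were above the floor in all samples. Fadd, the adaptor that joins Fas to Casp8, gave 69.1, 78.4, 96.3 and 85.7 units, a range of 1.39-fold. Casp14, a caspase known from the outer skin, gave 52.3, 93.8, 60.8 and 129 units, a range of 2.46-fold, with samples 2 and 4 high.

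The inhibitor of apoptosis genes Birc2 and Birc6 stayed under 1.5-fold on their analysed probe sets. Birc2, a ubiquitin ligase of TNF receptor complexes, gave 155, 161, 204 and 178 units, with sample 3 high and a range of 1.31-fold. Its dim probe set, 161883_f_at, was also highest in sample 3, with a range of at least 3.16-fold. Birc6, a very large ubiquitin-conjugating enzyme that restrains caspases, gave 219.8, 262, 206 and 176 units, with sample 2 high and a range of 1.49-fold. Birc3 was above the floor in 2 samples, and Birc5, the mitotic protein survivin, spanned 1.97-fold at 29.9 to 59.0 units.

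Among the Traf adaptors, which carry signals from TNF and interleukin receptors, 3 of 9 probe sets were analysed. Traf2, the adaptor that brings Birc2 to TNF receptors, gave 278, 393, 293 and 242 units, with sample 2 high and a range of 1.62-fold (302 ± 64.5 units, SD, n = 4; limma adjusted p = 0.994). Traf4, which is expressed in the nervous system from development on, was nearly even, with 223, 225, 229 and 254 units and a range of 1.14-fold. Its dim second probe set, 162482_at, was lowest in sample 4 (43.7 units), where the first was highest. Traf6, a ubiquitin ligase of interleukin-1 and Toll-like receptor signalling, spanned 1.63-fold (147, 114, 90.2 and 104 units), with the highest value in sample 1. Its dim probe sets, 98874_at and 104190_at, were each above the floor in 2 samples. Traf1 was under the floor in all samples, Traf5 spanned 1.59-fold at 30.0 to 47.7 units, and Traf3ip2 was above the floor in samples 1 and 2 only.

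**Figure D3:**
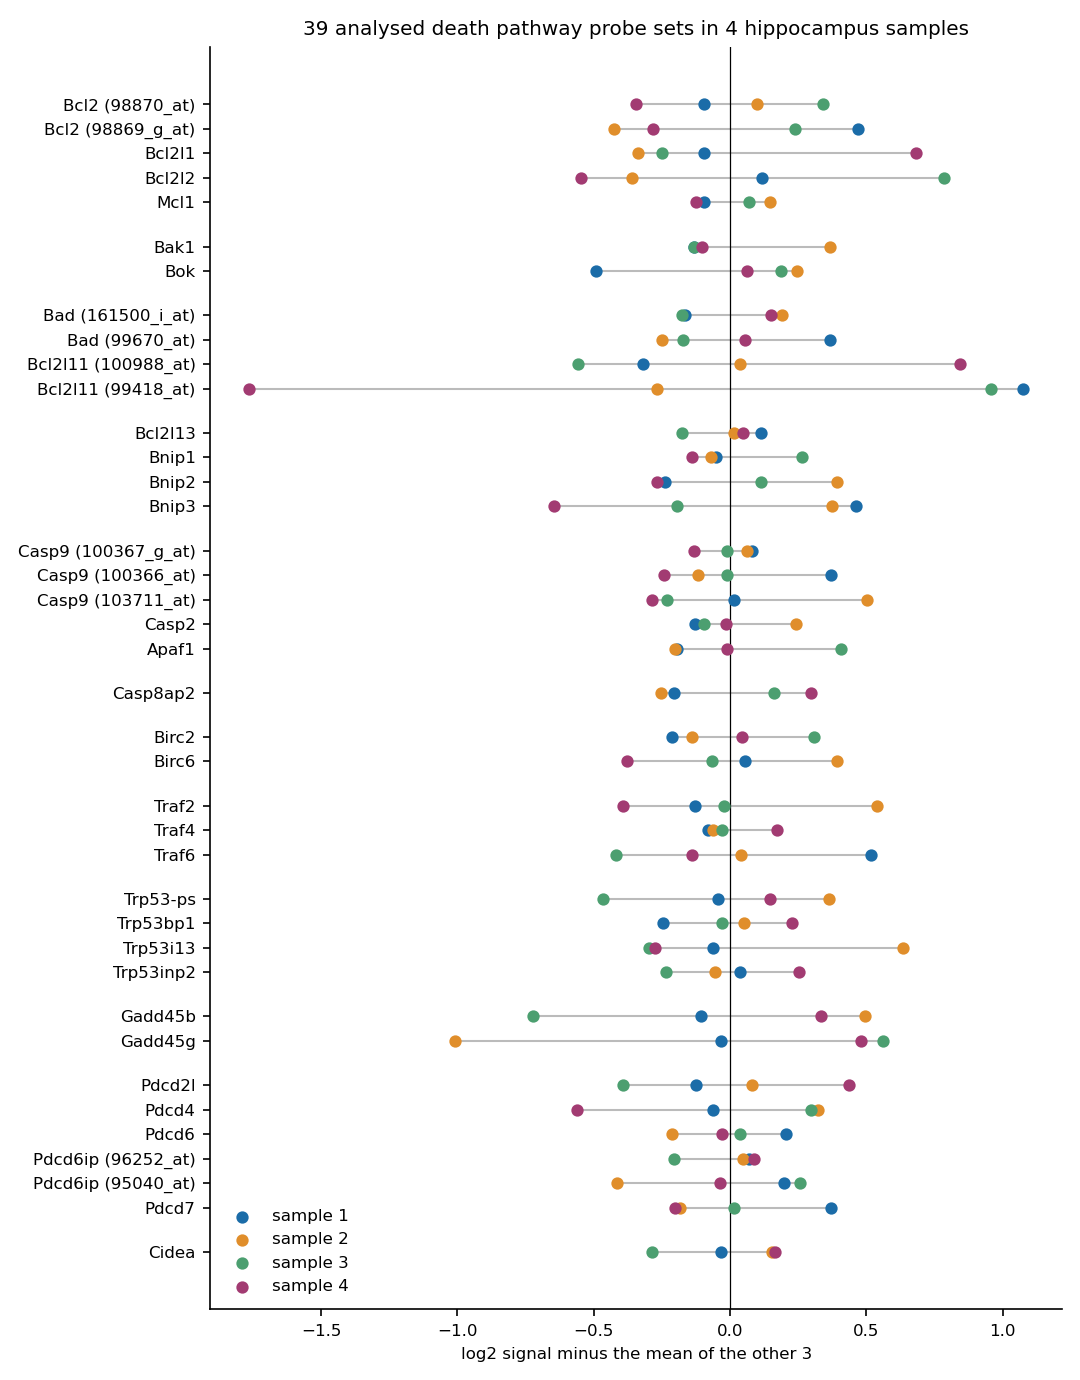
Log2 difference of each sample from the mean of the other 3 (horizontal axis) for the 39 analysed probe sets, grouped by role from the protective Bcl2 proteins at the top to Cidea at the bottom, with 1 point per sample in 4 colours. Most points lie close to 0, both Bcl2l11 probe sets have sample 4 at opposite ends, and Gadd45b and Gadd45g have sample 3 at opposite ends.

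The p53-related genes showed ranges between 1.28-fold and 1.62-fold on 4 analysed probe sets. The members include probe sets annotated to Trp53-ps, a pseudogene of Trp53, and whether they also read the mRNA of Trp53 was not tested. The analysed one, 101618_r_at, gave 316, 390.1, 253 and 348 units, with sample 2 high, sample 3 low and a range of 1.54-fold, and the dim one, 101617_s_at, had the same highest and lowest samples. Trp53bp1, a repair factor at DNA double-strand breaks, gave 197, 230.1, 220.5 and 252 units, a range of 1.28-fold. Trp53inp2, a regulator of autophagy, gave 891, 850.3, 775 and 999 units (879 ± 93.4 units, SD, n = 4), a range of 1.29-fold, and Trp53i13 spanned 1.62-fold with sample 2 high.

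The Gadd45 genes, small stress proteins that act in growth arrest and DNA demethylation and of which Gadd45b is induced by neuronal activity in the dentate gyrus, ran in different orders over the samples. Gadd45g gave 171, 103, 232 and 223 units, with samples 3 and 4 high, sample 2 low and a range of 2.26-fold (182 ± 59.5 units, SD, n = 4; limma adjusted p = 0.969). Gadd45b gave 112, 153, 81.2 and 141 units, with sample 2 high, sample 3 low and a range of 1.89-fold (122 ± 32.1 units, SD, n = 4; limma adjusted p = 0.994). Its second probe set, 161666_f_at, was too dim for analysis and also had its lowest value in sample 3 (91.0, 93.7, 62.0 and 99.7 units).

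Gadd45a, too dim for analysis but above the floor in all samples, likewise had its lowest value in sample 3, with 80.6, 85.9, 48.2 and 115 units and a range of 2.39-fold. Sample 3 was thus the lowest sample for 3 of 3 probe sets of Gadd45a and Gadd45b and the highest for Gadd45g. Over all analysed probe sets, which leave out Gadd45a and the dim Gadd45b probe set, sample 3 was the lowest in 23.4% and the highest in 22.5%. The count was made with these values known and was not tested. Sample 3 also had the lowest red blood cell, choroid plexus, oligodendrocyte and vessel sums and the lowest sum for T cells, B cells and neutrophils. The oligodendrocyte sum was nearly as low in sample 1. The part of these sums in the Gadd45 values was not tested. Without sample 2 the range of Gadd45g was 0.45 log2 units, against 1.18 with it.

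The promoters of the Gadd45 genes are shown because these genes share a family and differed in their order over the samples. They run from 250 bases before to 50 bases after the start of each gene, 5′ to 3′ on the strand of the gene, from RefSeq on GRCm38.p6. Capitals mark matches to motifs searched on both strands. One of these motifs is the TATA box, TATAAA. Another is CCAAT, which gives the box of that name. The other is the GC box, with the letters GGGCGG. The positions are chr6:67037358-67037657 (minus strand) for Gadd45a, chr10:80929841-80930140 (plus strand) for Gadd45b and chr13:51846425-51846724 (plus strand) for Gadd45g.
Gadd45a: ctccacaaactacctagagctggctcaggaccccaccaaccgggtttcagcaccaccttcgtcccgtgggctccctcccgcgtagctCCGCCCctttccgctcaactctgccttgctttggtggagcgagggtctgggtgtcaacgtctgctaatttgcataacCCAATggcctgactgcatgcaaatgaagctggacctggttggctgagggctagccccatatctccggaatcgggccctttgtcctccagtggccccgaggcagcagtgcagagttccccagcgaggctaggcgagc
Gadd45b: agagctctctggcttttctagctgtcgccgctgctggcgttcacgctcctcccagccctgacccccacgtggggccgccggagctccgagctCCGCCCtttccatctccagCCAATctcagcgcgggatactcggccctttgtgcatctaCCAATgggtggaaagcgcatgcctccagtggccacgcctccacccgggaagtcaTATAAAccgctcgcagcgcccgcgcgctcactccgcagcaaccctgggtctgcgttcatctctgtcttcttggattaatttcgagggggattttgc
Gadd45g: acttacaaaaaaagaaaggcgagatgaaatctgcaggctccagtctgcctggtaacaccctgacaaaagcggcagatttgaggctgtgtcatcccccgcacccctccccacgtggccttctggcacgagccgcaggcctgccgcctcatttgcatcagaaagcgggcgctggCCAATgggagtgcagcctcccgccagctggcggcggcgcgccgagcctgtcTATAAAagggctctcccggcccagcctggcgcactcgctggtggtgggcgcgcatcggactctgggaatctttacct
Gadd45b had a TATAAA match 46 bases upstream of its start and Gadd45g had one 27 bases upstream, and Gadd45a had none in this window. A CCAAT match lay 86 bases upstream in Gadd45a, 139 and 100 bases upstream in Gadd45b and 78 bases upstream in Gadd45g. A GC box match, on the opposite strand, lay 163 bases upstream in Gadd45a and 158 bases upstream in Gadd45b. TGACGT, the core of a cAMP response element, was also searched on both strands and matched in none of the 3. Of 32851 promoters of this length, 13.6% held TATAAA, 37.4% CCAAT, 35.7% GGGCGG and 7.51% TGACGT. A match describes letters only, and no overlaps between matches of these motifs occurred in the 3 windows.

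**Figure D4:**
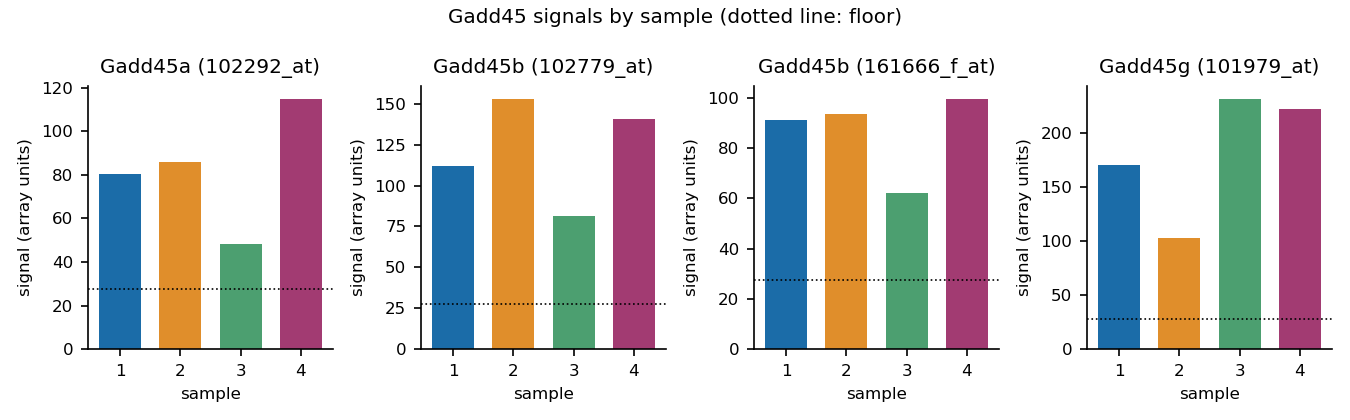
Normalized signal (array units, linear axis from 0) in samples 1 to 4 for Gadd45a, both Gadd45b probe sets and Gadd45g, with 1 bar per sample, no error bars and a dotted line at the floor of 27.7 units. Sample 3 is the lowest for Gadd45a (48.2 units) and for both Gadd45b probe sets (81.2 and 62.0 units) and the highest for Gadd45g (232 units).

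Genes named for programmed cell death (Pdcd) have little in common beyond the name, and 4 of 6 analysed probe sets stayed under 1.5-fold. Pdcd4, an inhibitor of translation initiation, gave 888, 1085, 1071 and 685 units, with sample 4 low and a range of 1.58-fold (932 ± 188 units, SD, n = 4; limma adjusted p = 0.994). Pdcd2l gave 427, 474, 371 and 571 units, with sample 4 high and a range of 1.54-fold. Pdcd6, a calcium-binding protein, and its partner Pdcd6ip, the ESCRT adaptor Alix, were steady on their analysed probe sets. These spanned 1.24-fold for Pdcd6 and 1.17-fold and 1.42-fold for Pdcd6ip, and Pdcd7 spanned 1.35-fold. The dim Pdcd6 probe set, 162490_f_at, spanned at least 2.68-fold.

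Pdcd1, an inhibitory receptor of T cells, was above the floor in 1 sample. Pdcd2 was above it in all samples, at 33.0 to 50.7 units. Cidea, a lipid droplet protein, gave 160.1, 177, 141 and 178 units, a range of 1.26-fold, and its relative Cideb was above the floor in samples 1 and 2 only.

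Probe sets of the same gene often disagreed on the order of the samples. For the 5 genes with more than 1 analysed probe set, Bcl2, Bad, Bcl2l11, Casp9 and Pdcd6ip, 1 of 7 pairs of probe sets had the same highest sample (14.3%), against 259 of 878 pairs (29.5%) over all genes. The lowest sample was shared by 3 of 7 pairs (42.9%, against 28.2% of all), and these were the 3 pairs of Casp9. In 3 of 7 pairs (42.9%, against 38.0% of all), those of Bad, Bcl2l11 and Pdcd6ip, the highest sample on one probe set was the lowest on the other. Pairs of 1 gene share their probe sets, and these shares were not tested.

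Other genes of the pathway, from lists chosen with earlier results of these data known, gave 0 probe sets past the variance test (limma, adjusted over 6211). The counts of genes at 2-fold or more that follow stand beside 14.4% of all analysed probe sets. Of 10 analysed p53-responsive genes (11 measured), 2 spanned at least 2-fold, the cell cycle inhibitor Cdkn1a (4.01-fold, highest in sample 3) and the ribonucleotide reductase subunit Rrm2b (2.37-fold; 229, 164, 247 and 104 units). Mdm2, the ubiquitin ligase of p53, spanned 1.29-fold. Of 14 analysed genes of the death machinery (23 measured), 2 spanned at least 2-fold. Tradd, the adaptor of TNF receptor 1, gave 114, 119, 416 and 233 units, a range of 3.63-fold with sample 3 high (limma adjusted p = 0.660). The receptor gene Tnfrsf1a itself gave 137, 154, 71.8 and 134 units and was lowest in sample 3, at 2.14-fold. Cycs, which encodes cytochrome c, spanned 1.15-fold, and the mitochondrial carrier Slc25a4 spanned 1.06-fold. Of 6 analysed genes of the NF-kappaB arm (9 measured), 1 spanned at least 2-fold, the kinase gene Ikbkb (3.09-fold; 162, 133, 102 and 52.6 units), with sample 4 low, and Rela, a subunit of the factor itself, spanned 1.13-fold.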

How the data were processed

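The deposited values are array intensities on a linear scale, 1 column per sample, and the file shows that their mean after the lowest and highest 2% of probe sets are left out is the same on each array, so that the arrays were scaled before deposit. The software used is not given in the sources used here. The platform follows from the probe annotation, whose single symbols were used. All 76 members besides the control matched the RefSeq gene table of GRCm38.p6 through the Entrez identifier with the same symbol.

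Quantile normalization (limma 3.58.1, R 4.3.3) was run without the 66 control probe sets. Values under the 25th percentile (27.7 units) were set to it. After log2, the upper 50% of probe sets by mean were analysed. Variances were tested against their robust trend on signal with a one-sided F test (3 residual and 5.20 prior degrees of freedom). The procedure was run on simulated data drawn from its own fitted trend, which cannot show that this trend holds for these arrays. The smallest change that the test would find is not given here. Ranges that involve the floor are lower bounds. The number of arrays limits the precision.

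Values are given in every sample for the first 2 analysed genes of each role and for each analysed member with a range of at least 2-fold or an unadjusted p under 0.05. Apaf1, Bcl2l2, Birc5, Bnip3, Casp14, Fadd, Gadd45a, Mcl1, Bid, Traf5, Traf6 and Trp53inp2 were given more values than this rule asks after theirs had been seen. Members, roles and lists were chosen with earlier results of these data known. The variance test was also run with other normalizations, floors, filters and trend fits and with each sample left out.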

Additional observations from a re-analysis of the deposited data

Results flagged for a closer look

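Among the 39 analysed death pathway probe sets, 2 (5.13%) had 1 sample far from the other 3, by Dixon's criterion on the log2 scale, against 6.02% of all analysed probe sets. Chance flags about 1 in 20 groups. Bak1 was high in sample 2, at 277 units, where the next sample was at 217 units. Pdcd6ip (96252_at) was low in sample 3, at 362 units, where the next sample was at 413 units. Its second probe set had another lowest sample.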

How the results depend on the processing

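No member passed the variance test under any of the alternatives tried, with a lowest adjusted p among members of 0.143 (no signal filter) to 0.969. With no signal filter, which adds probe sets near the floor, 17 of 76 members spanned at least 2-fold (22.6% of all probe sets), 7 had an unadjusted p under 0.05 (13.1% of all), and the median deviation in sample 2 was 0. These 7 were probe sets of Bcl2l1 (99026_at), Bik, Birc3, Casp1, Casp4, Casp8 and Pdcd1. Each was above the floor in only 1 or 2 samples, with its other values set to the floor. The probe set 99418_at of Bcl2l11 was not among them. With the filter at the 75th percentile, 13 members were left, 0 spanned at least 2-fold and 0 had an unadjusted p under 0.05 (6.60% and 4.99% of all), their median range of 0.55 log2 units was above that of all probe sets tested (0.43), and the median deviations in samples 3 and 4 were -0.176 and 0.0483. That in sample 2 was -0.0195 with median scaling, and that in sample 4 was -0.0850 with values as deposited. With each sample left out in turn, 1 to 3 members spanned at least 2-fold (6.65% to 11% of all) and 0 to 1 had an unadjusted p under 0.05 (5.04% to 5.89% of all). The median range was then 0.38 to 0.43 log2 units, and the median deviations were -0.0664 to 0.0189, -0.0021 to 0.0674, -0.0614 to -0.0166 and -0.0568 to -0.0151 in samples 1 to 4. The median was negative under each alternative run in sample 3 and changed sign under some in samples 1, 2 and 4. The cause of these changes was not tested. Leaving out probe sets with a suffix in their name, an alternative chosen after seeing the data, gave 3 members of at least 2-fold. Low signals cannot be told from background without detection calls. No paired analysis was possible because the samples form a single group.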
